A study of Mus musculus with 6 samples.

Results

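The genes described are those of the insulin-like growth factor (IGF) axis: the ligands Igf1 and Igf2, the receptors Igf1r and Igf2r, and the binding proteins Igfbp2 to Igfbp7. They were taken by gene name from a table of 25251 genes, in which 9 of the 10 were found. Igf2 is not analysed here. The set was chosen by gene name, but with the fold changes and p-values of irinotecan against control already known, and Igfbp3 had been named for its difference there. The group differences below are therefore given as a description of these tumours.

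RNA was sequenced from 6 subcutaneous tumours of CT26, a mouse colon carcinoma cell line, grown in BALB/c mice and labelled as wild type. The 3 control tumours came from mice given solvent and the 3 others from mice given irinotecan (CPT-11), a drug whose active metabolite blocks topoisomerase I. Randomization took place at a tumour volume of 100 mm3, per the labels' protocols, and the drug was injected intraperitoneally at 25 mg/kg every 4 days. The sources used here do not give the number of doses, the time of collection or the age of the mice. Duplicates are mentioned in the design text, but 3 samples a group are listed, and nothing states that each came from its own mouse. The p-values thus measure the spread between these samples, which may be technical.

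IGF-I and IGF-II are small secreted hormones that drive growth and survival through the tyrosine kinase receptor encoded by Igf1r, whereas the receptor encoded by Igf2r carries IGF-II to lysosomes for breakdown. In blood and tissue fluid the ligands are held by secreted binding proteins, which limit their access to the receptor, prolong their life and are cut by proteases. In tumours, stromal cells are a known source of the ligands, and the binding proteins can be made by both stromal and tumour cells.

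The libraries held 13940650 to 15656894 reads recovered from the normalized values. Irinotecan replicate 1 stood apart: across genes its log2 values correlated at 0.932 to 0.941 with the others, against 0.975 to 0.985 for the 10 other pairs. In that library genes with over 60% GC had a median log2 deviation from the control mean of -0.76, and genes over 8000 bases one of 0.36. In the other irinotecan libraries these medians were -0.07 and -0.03 for GC, and -0.01 and 0.03 for length. Of the epithelial markers, Krt8 and Krt18 were present in all 6 libraries (37.0 to 149.3 and 46.2 to 142.2 normalized counts), while Epcam had reads in 1 library only, at 2.9 normalized counts. The sum of the fibroblast markers was 31121.4 to 42646.0 in controls and 35720.9 to 39766.9 with irinotecan, led by the collagen gene Col1a2 (log2 difference 0.18, SE 0.158). The list was mixed: of its 9 genes 4 had a positive and 5 a negative log2 difference, with a median of -0.12. In such bulk samples, fewer cells of a type and less RNA per cell cannot be told apart.

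Igfbp3, Igfbp7 and Igf1r were the members whose irinotecan libraries lay wholly outside the range of the controls, and the 250 bases before their RefSeq start sites (GRCm38.p6) are shown for that reason. The Igfbp3 window is chr11:7213924-7214173 on the minus strand, the Igfbp7 window chr5:77408046-77408295 on the minus strand and the Igf1r window chr7:67952007-67952256 on the plus strand. Capitals mark matches on either strand to any of 5 strings. The first is the TATA box, searched as TATAAA, a core element of many tissue-restricted promoters. The GC box bound by Sp1 was searched as GGGCGG, which is common in CpG-rich promoters. The E-box, bound by Myc and clock factors, was searched as CACGTG. The core of the hypoxia response element was searched as ACGTG, which also lies within the E-box, and the CCAAT box as its own letters.
Igfbp3: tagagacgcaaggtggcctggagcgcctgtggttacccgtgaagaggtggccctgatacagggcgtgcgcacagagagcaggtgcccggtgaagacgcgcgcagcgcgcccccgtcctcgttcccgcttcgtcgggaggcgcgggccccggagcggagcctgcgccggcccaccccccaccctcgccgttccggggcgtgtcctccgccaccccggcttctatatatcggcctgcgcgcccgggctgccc
Igfbp7: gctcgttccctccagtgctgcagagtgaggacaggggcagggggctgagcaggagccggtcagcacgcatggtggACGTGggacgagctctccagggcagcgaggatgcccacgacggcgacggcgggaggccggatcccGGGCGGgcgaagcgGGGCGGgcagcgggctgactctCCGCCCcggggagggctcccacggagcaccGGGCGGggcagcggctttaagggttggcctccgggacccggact
Igf1r: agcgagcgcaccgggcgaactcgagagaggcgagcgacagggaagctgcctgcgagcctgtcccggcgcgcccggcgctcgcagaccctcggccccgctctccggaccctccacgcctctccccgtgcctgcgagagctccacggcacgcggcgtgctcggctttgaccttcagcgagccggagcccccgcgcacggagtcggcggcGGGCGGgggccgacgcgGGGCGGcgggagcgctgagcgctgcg
All 3 windows were rich in GC (73.2%, 74.0% and 77.6%, against a median of 52.4% over 32851 RefSeq windows), with 32, 26 and 42 CpG dinucleotides. The Igfbp3 window held none of the 5 strings. Only exact matches were searched, so near forms such as tatata, which this window holds, are not counted. The Igfbp7 window held 4 GC boxes and 1 ACGTG, and the Igf1r window 2 GC boxes, where 32.7% of all windows held a GC box and 16.6% an ACGTG. RefSeq windows were matched for all 9 genes found. The TATA string began 28 bases before the start in Igfbp4, on the strand of the gene, and 148 bases before it in Igfbp6, on the other strand, and occurred in 12.4% of all windows. The CCAAT box lay in the Igf1 window (1) and in the Igfbp6 window (2), against 33.8% of all windows. GC boxes also lay in the Igf2r window (3) and in the first Igfbp2 window (3), which held 4 and 2 matches to ACGTG. E-boxes lay in the Igf2r window (2) and in the first Igfbp2 window (1), against 6.02% of all windows. These matches describe the letters of the windows and show no binding.

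Per length, Igfbp6, Igfbp3, Igfbp4 and Igfbp7 were above the other 5 genes found in the controls. In controls Igfbp6, whose product prefers IGF-II, had 2740 ± 297 normalized counts per 1000 bases of gene length (SD, n = 3). Igfbp3, which encodes the main IGF carrier of the circulation, had 1250 ± 168 on the same scale. Igfbp4, an inhibitory binding protein cut by the protease PAPP-A, had 600 ± 82.5. Igfbp7, a matrix-associated relative of low IGF affinity that is known from blood vessels, had 563 ± 64.5. Among 12473 protein-coding genes tested, 98.7%, 96.6%, 91.5% and 90.9% had a lower control level per length than these 4 genes.

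The receptors were at middle levels, with 143 ± 7.20 normalized counts per 1000 bases for Igf1r and 91.4 ± 28.6 for Igf2r in controls. Igfbp5, a binding protein that attaches to matrix, had 5.70 ± 1.79 and the ligand gene Igf1 3.58 ± 0.553, above 6.1% and 3.4% of the protein-coding genes. Igfbp2, common in fetal and epithelial tissue, had 0.512 ± 0.506 and 3 reads over the 3 control libraries together. In this order Igfbp4 and Igfbp7 overlapped in their control values (505.2 to 650.3 and 499.0 to 627.9), as did Igfbp5 and Igf1 (3.656 to 7.004 and 2.956 to 4.009). The other neighbours did not overlap in the controls. With irinotecan the order of the means was the same, but in irinotecan replicate 1 Igf1r (294.1) lay above Igfbp7 (210.6). The order of the means was also the same with the longest annotated transcript as length.

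**Figure D1:**
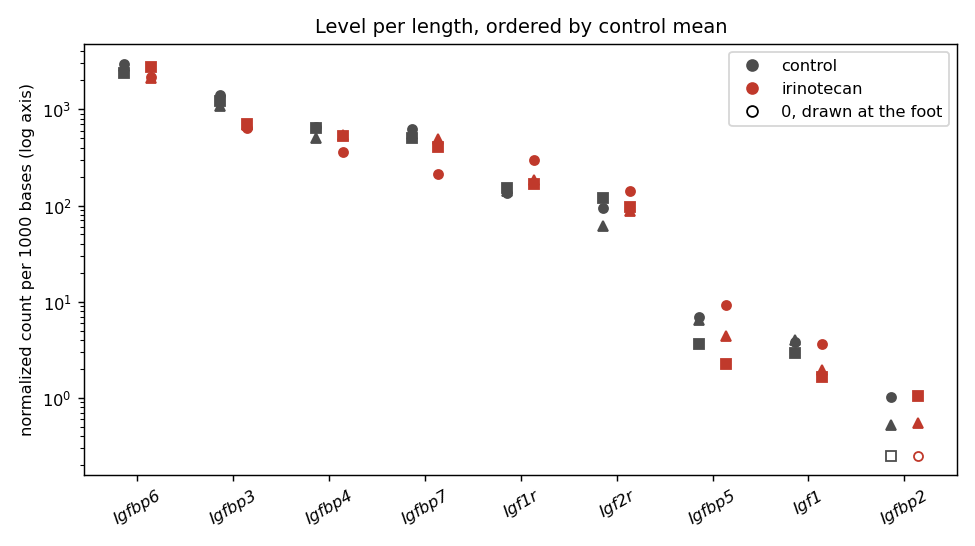
Normalized count per 1000 bases of gene length (log axis) for the 9 genes found, ordered by control mean; each symbol is 1 library, grey for control and red for irinotecan, with circles, squares and triangles for replicates 1, 2 and 3. The binding proteins Igfbp6, Igfbp3, Igfbp4 and Igfbp7 lie above both receptors in every control library, and Igf1, Igfbp5 and Igfbp2 lie at the foot.

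The genes lie apart from each other except for one pair. Igfbp2 and Igfbp5 are neighbours on chromosome 1 (72824503 to 72852474 and 72857932 to 72874884), on opposite strands and 5457 bases apart. Igfbp3 is on chromosome 11 from 7206086 to 7213923, 3539 bases from Igfbp1, and Igfbp4 is on the same chromosome from 99041244 to 99054392. Igf1r is on chromosome 7 (67952827 to 68233668), Igf1 on chromosome 10 (87858265 to 87937042), Igfbp6 on chromosome 15 (102144362 to 102149511), Igf2r on chromosome 17 (12682406 to 12769664) and Igfbp7 on chromosome 5 (77349240 to 77408041), all on GRCm38. These spans are the same in GENCODE M21, where the deposited gene lengths equal the merged exons. The merged exons number 21 for Igf1r, 49 for Igf2r and 5 for Igfbp3. Counts are therefore per gene over its exons, untranslated parts included, and do not separate isoforms.

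Igfbp3 was lower in all 3 irinotecan tumours than in any control. Its normalized counts were 4450.9, 3868.4 and 3401.7 in control replicates 1, 2 and 3, and 1984.8, 2220.1 and 2171.0 in irinotecan replicates 1, 2 and 3. The 3 irinotecan tumours lay close together. On the log2(normalized count + 1) scale the difference was -0.87 (SE 0.141), or 0.547 times the control level, with a 95% interval of -1.19 to -0.55 that is not adjusted for the number of genes. It was -0.82 (SE 0.118) without irinotecan replicate 1 and -0.78 (SE 0.115) with the trend on GC content and gene length removed from each library.

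Whether Igfbp3 passed over all genes depended on the test. In limma it did not (adjusted p = 0.662 over 14639 genes), nor in edgeR (adjusted p = 0.648) or limma-voom (adjusted p = 0.685), and without irinotecan replicate 1 the limma adjusted p was 0.0525. In the authors' deposited table Igfbp3 stood at rank 5 by p, with a log2 fold change of -0.88 and an adjusted p = 0.00115. There, 0.0752% of the 25251 genes were lower at an adjusted p under 0.05, and 0.111% higher. Igfbp3 was the only member among them. DESeq2 on the recovered reads also called it (adjusted p = 2.08e-04), where 0.157% of genes were called lower and 0.198% higher, and so did limma with estimated library weights (adjusted p = 0.00950), where 0.15% of genes were called lower and 0.205% higher. All of these tests use the same 6 libraries.

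Igfbp7 was the other binding protein whose groups did not overlap. In the controls it had 759.1, 603.3 and 677.8 normalized counts, followed by 254.6, 488.3 and 587.9 with irinotecan. The highest irinotecan library lay just under the lowest control, and irinotecan replicate 1 lay far below the rest. The log2 difference was -0.69 (SE 0.291; limma adjusted p = 0.743). It was -0.34 (SE 0.138) without irinotecan replicate 1 and -0.41 (SE 0.145) once the GC and length trend was taken out. The exons of Igfbp7, whose transcripts have 59.0% GC, share 85 bases with Polr2b, an RNA polymerase II subunit gene on the other strand. Polr2b had 1541.6 ± 96.5 normalized counts in control and 1602.4 ± 298.2 in irinotecan tumours, and without a stated strand setting, reads in the shared bases cannot be told apart.

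Vessel markers were lower in the same libraries as Igfbp7. The sum of 8 endothelial markers was 2871.0 to 3051.4 normalized counts in controls. In irinotecan replicates 1, 2 and 3 it was 1652.1, 2118.0 and 2469.0, the same order as Igfbp7. This order was not particular to vessel markers. Fibroblast markers (35720.9, 39277.5 and 39766.9) and adipocyte markers (105.8, 239.8 and 362.9) also summed in it, with overlap with the controls. Replicate 1 is the library that stood apart. Of the 8 endothelial genes 7 had a negative log2 difference and none was at 0. Groups did not overlap for 4 of the 8, all lower, where 7.89% of all genes tested were lower in that sense. The highest in controls, the adhesion gene Cdh5, had -0.67 (SE 0.173), and -0.54 without irinotecan replicate 1. Pericyte and smooth muscle markers summed to 811.3 to 892.8 in controls and to 463.1, 673.2 and 733.8 with irinotecan. Of the 6 tested, 5 had a negative log2 difference, and Des had 0.38 (SE 0.538). Rgs5, the highest of them, had -0.43 (SE 0.218) with overlapping groups, and -0.21 without irinotecan replicate 1. Macrophage markers, led by Mrc1 (-0.74, SE 0.180), summed to 10775.3 to 13060.1 in controls. In irinotecan replicates 1, 2 and 3 they summed to 5367.0, 10017.8 and 9578.1, an order other than that of Igfbp7. All 7 macrophage genes had a negative log2 difference. Without irinotecan replicate 1 C1qa turned to 0.26, and the others ranged from -1.14 (Cd163) to -0.09 (C1qb), with Mrc1 at -0.59. Neutrophil markers summed to 289.6 to 494.8 in controls and to 131.4, 170.5 and 209.8 with irinotecan, again the order of Igfbp7. The 4 genes tested were all negative but split in this order. Csf3r (42.1, 132.0 and 161.2) and Cxcr2 (1.0, 6.7 and 7.1) followed it. S100a8 (34.9, 15.4 and 18.2) and S100a9 (53.4, 16.4 and 23.3) were highest in irinotecan replicate 1 and overlapped the controls. The part of these cell types in the values of Igfbp7 and Igfbp3 was not tested.

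Igfbp4 and Igfbp6 were lower on average with overlapping groups. In controls Igfbp4 had 2871.9, 2852.2 and 2231.0 normalized counts, and in the irinotecan libraries 1587.4, 2327.9 and 2381.9. Irinotecan replicates 2 and 3 lay above control replicate 3, and the log2 difference was -0.35 (SE 0.192; 95% interval -0.79 to 0.09). Without irinotecan replicate 1 it was -0.16. Igfbp6 had 3328.1, 2683.9 and 3131.5 in controls and 2399.6, 3098.5 and 2337.3 with irinotecan, a log2 difference of -0.23 (SE 0.158; 95% interval -0.59 to 0.13). Its transcripts have 60.7% GC, and removing the trend on GC and length turned the difference to 0.10 (SE 0.219).

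Igfbp5 and Igfbp2 were too low for a firm comparison. For Igfbp5 the control libraries had 42.1, 22.0 and 38.7 normalized counts and the irinotecan libraries 55.4, 13.5 and 26.4. Both the highest and the lowest library were irinotecan libraries, and the log2 difference was -0.27 (SE 0.535). It was 0.21 without irinotecan replicate 2 and -0.77 without irinotecan replicate 1. Igfbp2 had 0 to 2 reads in each library, a mean below the minimum of 10, and was not tested.

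**Figure D2:**
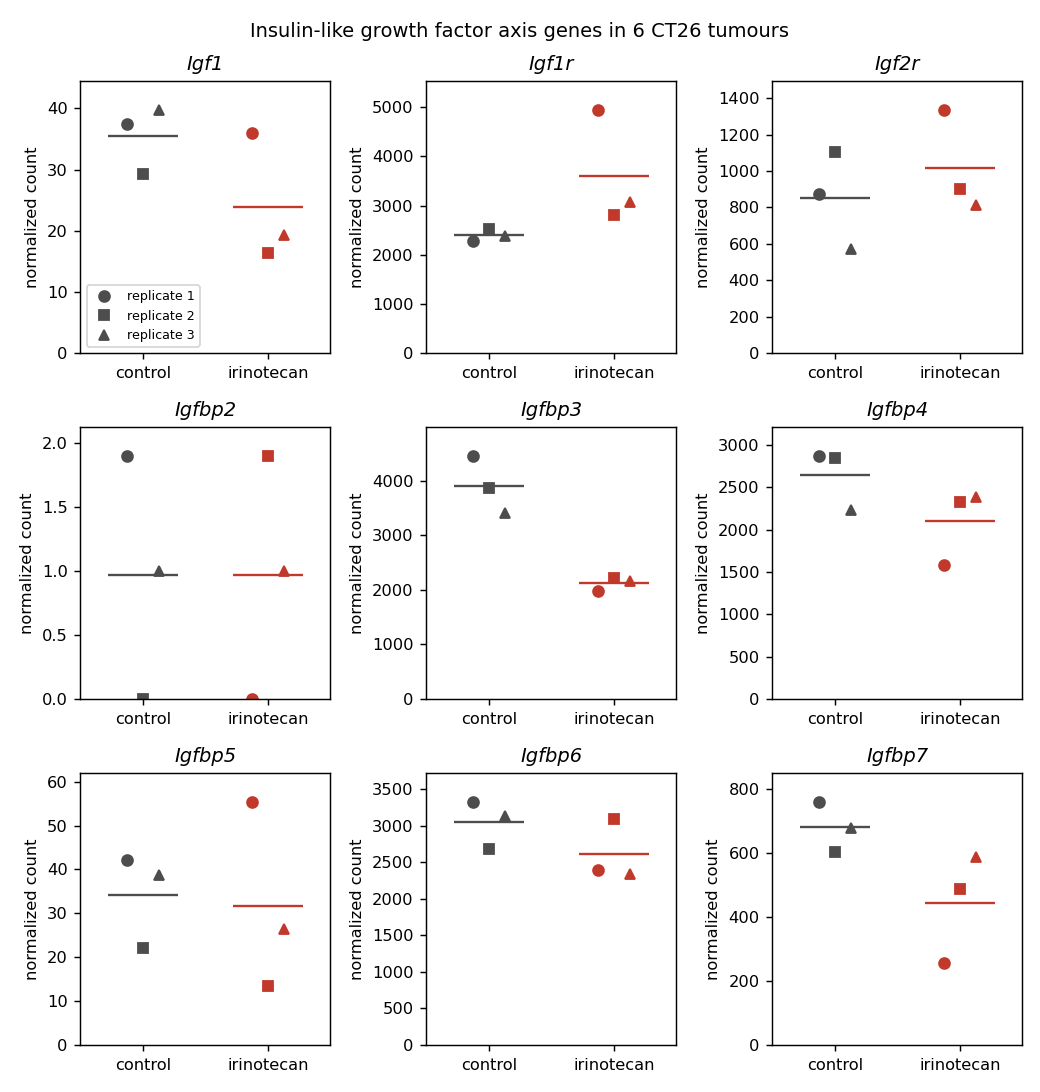
Normalized counts (linear axes from 0) of the 9 genes found, with 3 control tumours in grey and 3 irinotecan tumours in red; symbols give the replicate and horizontal bars the group mean. Igfbp3 and Igfbp7 lie lower and Igf1r higher in all 3 irinotecan libraries than in any control, whereas the other genes overlap.

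Igfbp3 also made up less of the binding protein transcripts with irinotecan. Summed per length over Igfbp2 to Igfbp7, the level was 5701, 4798 and 4976 normalized counts per 1000 bases in controls. With irinotecan it was 3371, 4430 and 3826, each below the lowest control. Igfbp3 is part of this sum, so its own difference enters the separation, and a sum without Igfbp3 was not made. Igfbp6, the largest part, overlapped between groups, with 2414 in control replicate 2 and 2786 in irinotecan replicate 2. Igfbp3 held 24.9%, 25.8% and 21.8% of this sum in controls and 18.8%, 16.0% and 18.1% with irinotecan. Igfbp6 held 53.1% ± 3.19 in controls and 60.6% ± 4.95 in the irinotecan libraries (both SD over 3 tumours), and the groups overlapped. Igfbp4 held 11.7% ± 1.67 and 12.2% ± 1.74, and Igfbp7 10.9% ± 0.446 and 9.36% ± 3.24. Without division by length the Igfbp3 share was 37.8% in controls and 29.3% with irinotecan. These shares are parts of 1 sum, and they move together by construction.

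**Figure D3:**
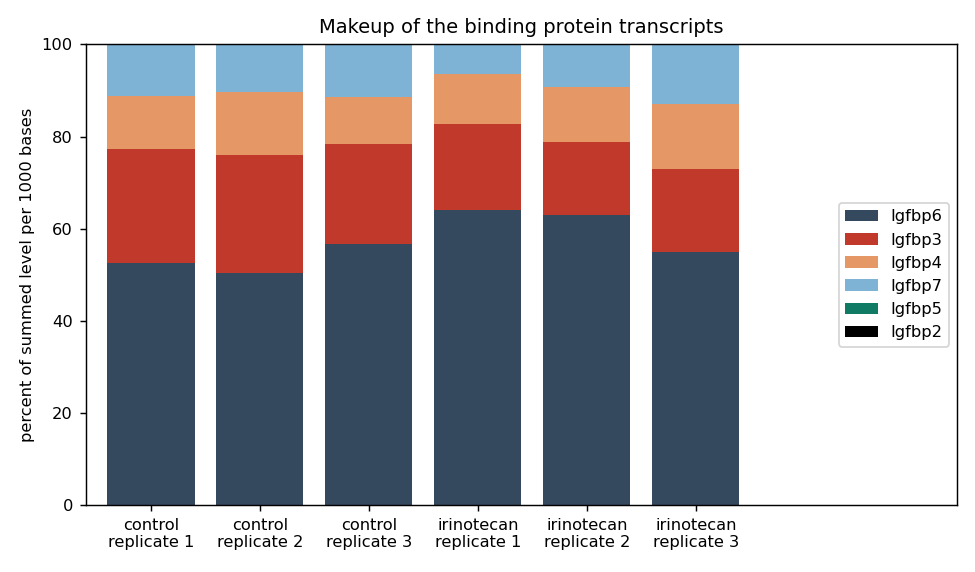
Stacked bars give, for each of the 6 libraries, the percent of the summed level per 1000 bases held by each binding protein gene. Igfbp6 makes up the largest block in every library, and the Igfbp3 block is 21.8% to 25.8% in controls and 16.0% to 18.8% with irinotecan; Igfbp5 and Igfbp2 are too small to see.

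Igf1r was the member tested whose irinotecan values all lay above the controls. The normalized counts were 2289.5, 2528.1 and 2375.3 in controls and 4938.8, 2813.4 and 3077.2 with irinotecan. Of the 3 irinotecan libraries, 2 lay above the controls by a small margin and replicate 1 by far. The log2 difference was 0.55 (SE 0.210; limma adjusted p = 0.743), and it was 0.30 (SE 0.099) without irinotecan replicate 1 and 0.38 (SE 0.116) once the GC and length trend was taken out. Igf1r has 16791 bases of exons, against a median of 3968 over the genes tested. In irinotecan replicate 1, where long genes as a group were higher, its log2 deviation from the control mean was 1.04, and 0.57 with the trend removed.

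Control values of Igf2r, which clears IGF-II, were 876.0, 1103.0 and 572.3 normalized counts, and irinotecan values 1333.8, 901.5 and 814.9. The controls spread widely and overlapped the irinotecan libraries, with a log2 difference of 0.27 (SE 0.271). Without irinotecan replicate 1 it was 0.06, and without control replicate 3 it was 0.02. Airn, the antisense RNA that silences the paternal Igf2r copy in mouse, overlaps Igf2r outside its exons and had 31.6 ± 5.3 and 28.2 ± 8.0 normalized counts.

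The ligand gene Igf1 was low throughout, with 28 to 41 reads a library in controls and 35, 17 and 19 in irinotecan replicates 1, 2 and 3. In normalized counts these were 37.4, 29.3 and 39.7 in controls and 35.9, 16.4 and 19.3 with irinotecan. Irinotecan replicate 1 lay among the controls and the other 2 irinotecan libraries below them. The log2 difference was -0.62 (SE 0.399; 95% interval -1.53 to 0.29), and -0.95 (SE 0.357) without irinotecan replicate 1.

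**Figure D4:**
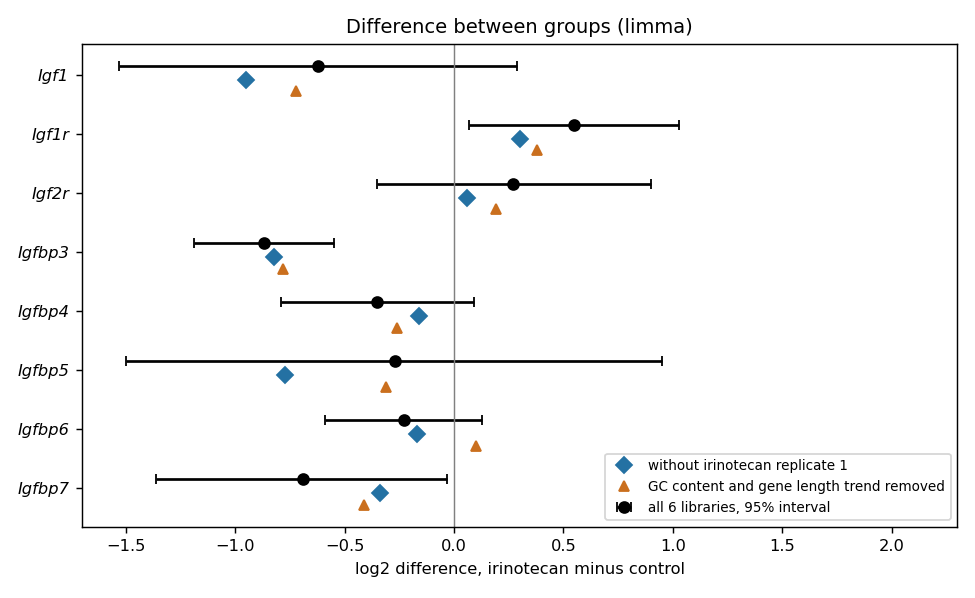
Black points and bars give the log2 difference, irinotecan minus control, with its unadjusted 95% interval from limma for the 8 members tested; diamonds leave out irinotecan replicate 1 and triangles have the GC and length trend removed. Igfbp3 stays between -0.87 and -0.78, while Igf1r and Igfbp7 move towards 0 and Igfbp6 crosses it.

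Over the 8 members tested, 2 had a positive and 6 a negative log2 difference, where 48.2% of all genes were positive and 51.8% negative. In these members limma called 0 in either direction at an adjusted p under 0.05, as it did for 0% of all genes. Groups did not overlap for 3 of the 8, 1 higher and 2 lower. Over all genes tested 6.68% were higher and 7.89% lower in that sense. At an unadjusted p under 0.05 limma had the same 3 members, where 2.68% of all genes were higher and 3.08% lower. Nothing is read from these counts, since the members were chosen with this contrast known.

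Other genes of the pathway were taken from a list of 60, of which 54 were in the table and 47 were tested. Of these 25 had a positive and 22 a negative log2 difference, with a median of 0.04 against -0.01 over all genes tested, and limma called 0. Groups did not overlap for 2 higher and 10 lower genes of the 47, where 6.68% of all genes tested were higher and 7.89% lower in that sense. Among 25 genes of receptor signalling 17 had a positive difference and the median was 0.17. The adaptor genes Irs1 and Irs2, which couple the receptors to PI3 kinase, had 263.8 and 1457.8 normalized counts on average in controls and 347.0 and 1728.0 with irinotecan, with log2 differences of 0.40 (SE 0.185) and 0.25 (SE 0.129). In both genes every irinotecan library lay above the controls, in Irs1 by a small margin (lowest irinotecan value 308.2, highest control 305.3). The PI3 kinase regulatory subunit gene Pik3r1 had 0.47 (SE 0.186), with overlapping groups, and 0.31 without irinotecan replicate 1.

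Among 8 genes of binding protein proteolysis, 6 had a negative log2 difference and the median was -0.28. The protease genes Pappa and Pappa2, whose products cut binding proteins, had means of at most 8.5 normalized counts and were not tested. Of the relatives of the binding proteins, Cyr61, which encodes a matricellular protein with the same kind of amino-terminal domain, had a mean of 811.3 in control and 440.2 in irinotecan tumours (-0.93, SE 0.263), and -0.63 without irinotecan replicate 1. The Igf2 mRNA-binding protein gene Igf2bp2 had 1607.0 and 1226.7 (-0.38, SE 0.133), again with no overlap. None of these genes passed in limma (adjusted p = 0.743 for each of the 5 named).

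Genes with a like profile were sought for the 3 members whose groups did not overlap. The measure was the root mean square difference between log2 profiles over the 6 libraries, each centred on its mean, among 9915 other protein-coding genes with a mean of at least 100. For Igfbp3 the nearest were Vps37b (0.112), Trp53i11 (0.125), Grasp (0.134), Rusc2 (0.152) and Nlrp3 (0.158), against a median of 0.496 over all genes. For Igfbp7 they were Epn1 (0.0690), Sgf29, Nhp2, BC029722 and Ptp4a3 (0.0944), against a median of 0.544. In irinotecan replicate 1 these 5 had log2 deviations from the control mean of -1.61 to -1.23, where Igfbp7 had -1.41. For Igf1r they were Lancl2 (0.0472), Ino80d, Huwe1, Cep350 and Gm38394 (0.0559), against a median of 0.400, with deviations of 0.98 to 1.05 in that library and 4 of the 5 longer than 8000 bases. For the 5 genes nearest to Igfbp3 the deviations in that library were -1.16 to -0.75, where Igfbp3 had -0.97. Profiles were matched over all 6 libraries, irinotecan replicate 1 included, so likeness in that library follows from the choice.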

How the data were processed

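RNA sequencing of 6 CT26 tumours, 3 control and 3 irinotecan, was analysed from 1 table. The submitters' processing notes name the aligner HISAT2 2.0.5, the counter featureCounts 1.5.0-p3, the test DESeq2 1.20.0, CASAVA and fastp, and the build GRCm38 (mm10). The sources used here give neither the annotation release nor the strand setting. The library columns deposited by the authors hold a normalized signal, read counts divided by 1 factor per library. Dividing each library by its lowest value above 0 gave whole reads for 100% of values (tolerance 1e-06). The authors also deposited log2 fold changes and p-values, per the file headers.

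The main test was limma 3.58.1 (R 4.3.3) with a trended prior on log2(normalized count + 1), group only, for the 14639 genes with a mean of at least 10, with Benjamini-Hochberg adjustment over all of them, two-sided, and a threshold of 0.05. This scale understates changes of low genes. Alternatives were edgeR 4.0.16, DESeq2 1.42.0 and limma-voom on recovered reads, other pseudocounts, filters and scalings, library weights, a replicate block, each library left out, and removal of a trend on GC content and length (GENCODE M21 transcripts, GC known for 99.87% of genes). The tests were first tested on simulated data. PCR copies were not told apart by molecular identifiers, and read depth therefore limits counting error alone. Libraries of 1 group differed beyond counting noise (chi-square per degree of freedom at least 10.9).

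The members and lists were chosen with earlier results of these data known. Named genes are all members found, the 3 other pathway genes of lowest unadjusted p on either side, genes overlapping a member, the leading marker of a list, and the 5 nearest profiles of each member without overlap. 1 pathway gene that this rule selects is not reported here. Pappa, Pappa2, Krt8, Krt18, Epcam, Polr2b, Des, C1qa, C1qb, Cd163, Csf3r, Cxcr2, S100a8 and S100a9 were named after their values were seen. Cyr61 and Ctgf are the table's names for Ccn1 and Ccn2. Sequences are from RefSeq windows on GRCm38.p6.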

Additional observations from a re-analysis of the deposited data

How the results depend on the processing

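Over 14639 genes limma called 0 higher and 0 lower, as did edgeR and limma-voom on the recovered reads. DESeq2 on the recovered reads called 29 higher and 23 lower, estimated library weights 30 higher and 22 lower, and DESeq2 without irinotecan replicate 1, an alternative chosen after seeing the data, 80 higher and 82 lower. With 1 library left out, limma called 0 to 2 genes higher and 0 lower. The cause of these differences was not tested. Igfbp3 passed under 3 alternatives: DESeq2 (-0.87), estimated library weights (-0.86) and DESeq2 without irinotecan replicate 1 (-0.83, adjusted p = 7.41e-07). Its log2 difference ranged from -0.97 to -0.77 over the 19 alternatives, both ends from leaving out a control (replicate 3 and replicate 1), with adjusted p-values up to 0.989 there. No other member passed under any alternative run. The direction turned for Igfbp5 without irinotecan replicate 2 (0.21; range over left-out libraries -0.77 to 0.21) and for Igfbp6 with the GC and length trend removed (0.10). Groups did not overlap for 3 members, and for 3 to 5 with 1 library left out, 5 of them without control replicate 2, where Igf1 and Igfbp6 joined and 12.7% of all genes were higher and 13.4% lower without overlap (9.29% to 13.4% and 10.3% to 14.6% over the left-out libraries); fewer libraries make separation easier. With the replicate number as a block limma again called 0 genes, and Igfbp3 had -0.87 (adjusted p = 0.689); deviations of same-numbered libraries correlated at -0.11, -0.01 and -0.21, so the numbers were not taken to pair the samples. With the longest annotated transcript as length, Igf1r in controls was at 210 normalized counts per 1000 bases and Igfbp3 at 1610. Igf1 and Igfbp5, at 14 to 54 reads a library, are limited by depth.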
